A study of Mus musculus with 9 samples.

Results

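Classical monocytes were described in single-cell RNA profiles of whole mouse knee joints, where 1404 of 16751 cells met the definition. A cell was counted as a monocyte when its counts of F13a1, Ccr2, Ms4a6c, Ly6c2 and Fn1 summed to 3 or more, the complement genes C1qa, C1qb and C1qc summed to 0, the primary granule genes Mpo, Elane, Prtn3 and Ctsg summed to less than 5, and S100a8 with S100a9 made up less than 12% of its counts. The members were chosen by the measured counts of these genes in the same data, so the levels of its genes, and every gene set against the remaining cells of the joint, are given as description without a test. The sick group held 5 female 129/Sve mice, aged 8 weeks, that had been sensitised to methylated bovine serum albumin (mBSA) and then received mBSA into the left knee joint to trigger antigen-induced arthritis. The healthy group held 4 mice of the same strain, sex and age whose left knee was injected with 20 μL of phosphate-buffered saline. Whole left joints were taken 1 week after the injection and profiled by Seq-Well, which captures single cells on beads in microwells. Arthritis was checked in the sick mice by immunohistochemistry, per the labels, and whether marrow was part of the dissected joint is not stated there. The labels state the sensitisation for the sick mice and do not say whether the healthy mice were sensitised as well, so sensitisation, the injected antigen and the arthritis cannot be told apart in the comparison.

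Classical monocytes are made in the bone marrow, leave it through the chemokine receptor Ccr2 and enter inflamed tissue, where they can turn into macrophages or dendritic cells. They carry high surface Ly6C in the mouse, and they respond to type I and type II interferons by switching on antiviral and antigen presentation genes. Klf4 is a transcription factor needed for monocyte development, and F13a1 (coagulation factor XIII A chain) and Fn1 (fibronectin) are secreted products that monocytes carry.

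The gate held 220, 467, 109, 173 and 142 cells in sick mice 1, 3, 4, 5 and 6, and 132, 36, 77 and 48 cells in healthy mice 1, 2, 3 and 4. Their summed counts ran from 133652 to 586196 per sick mouse and from 41066 to 213396 per healthy mouse, so healthy mouse 2 gave the smallest sum of any mouse. Across the file 8 barcodes occurred in more than 1 mouse, and 2 gated cells carried such a barcode. The labels give no sequencing batch. Healthy mice 2, 3 and 4 stood apart from healthy mouse 1: they had few monocytes, fewer genes per cell and a large share of haemoglobin counts. Some results that rest on them are given below with and without them. Single genes such as Plac8, H2-K1, B2m and Lyz1 are not given without all of these mice together.

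The gate genes had the following spread inside the gate. Ly6c2 was detected in 71.4% of the gated cells, F13a1 in 58.0%, Ms4a6c in 57.5%, Ccr2 in 56.1% and Fn1 in 36.3%. A single marker carried 158 of the 1404 cells (71 through Ly6c2 alone and 34 through Fn1 alone), while 107 cells had all 5 markers. Primary granule counts of 1 to 4 were present in 594 gated cells. At the lower edge of the marker sum, 382 cells inside had a sum of 3 and 677 cells outside had a sum of 2 with the other limits met. Klf4, which the definition did not use, stood at 134 CPM (counts scaled to the library total) in the cells just outside, 324 CPM at a sum of 3, 420 CPM at 4 or 5 and 610 CPM at 6 or more. Over the same bands Ms4a4c stood at 112, 169, 309 and 403 CPM, and Camp, a secondary granule gene of immature neutrophils, at 3653, 3472, 2436 and 2467 CPM. Klf4 and Ms4a4c were thus lowest in the cells just outside, and for Klf4 the largest ratio between neighbouring bands lay at the threshold itself.

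The label was checked against genes outside the definition. Klf4 was detected in 37.1% of gated cells and 4.98% of the other cells, at 493 and 61.8 CPM. Ms4a4c, a membrane protein gene of monocytes, was 9.81-fold higher in the gated cells, Ms4a6b 7.32-fold, the protease gene Ctsc 7.11-fold, and the pore-forming protein gene Mpeg1 5.77-fold. The cathepsin gene Ctss reached 1087 CPM in gated cells and 269 CPM elsewhere. Csf1r, the receptor for the main monocyte growth factor, was at 63.1 CPM in gated cells, where 7.12% had a count, and at 14 CPM in the other cells. C1q-positive cells were those whose counts of C1qa, C1qb and C1qc summed to 3 or more. In the 140 C1q-positive cells, 103 of them from sick mouse 3, Ctss stood at 6690 CPM and Csf1r at 127 CPM. Klf4 was detected in 47.1% of those cells, at 464 CPM, so these genes were not particular to the gate. Ms4a4c, Ms4a6b, Ctsc and Mpeg1 were lower there than in gated cells, at 73.9, 123, 254 and 328 CPM. The list of 33 other classical monocyte genes summed to 26085 CPM in gated cells and 14512 CPM elsewhere. Some of its members were lower in gated cells: Chil3 at 594 CPM against 1334 CPM elsewhere, Hp at 687 against 779 CPM and Plbd1 at 226 against 268 CPM. Of the macrophage list 15 of 21 genes had a count in the gated cells, and Vsig4, Cd5l and Timd4 were at 0 beside the C1q genes that the definition bars; the list summed to 298 CPM in gated cells and 323 CPM elsewhere. The conventional dendritic cell list was higher in gated cells (119 CPM, 12 of 14 genes with a count) than elsewhere (55.7 CPM), with its defining genes Xcr1 and Clec9a at 0. The T and NK cell list summed to 52.6 CPM in gated cells and 89 CPM elsewhere, with 10 of 13 genes present and Cd3g, Cd8a and Cd4 at 0.

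Neutrophil, erythroid, plasma cell, eosinophil and fibroblast genes were present in the gated cells too. The neutrophil list, with S100a8 and S100a9 in it, summed to 38837 CPM in gated cells and 137987 CPM in the others. The erythroid list, globin genes included, summed to between 55163 and 190961 CPM in the gated cells of sick mice and between 98943 and 317149 CPM in those of healthy mice. The plasma cell list was higher in gated cells (4782 CPM, 14335 in sick mouse 6 and 6743 in sick mouse 3) than elsewhere (3023 CPM). Of the gated cells 29.3% had 2 or more of its counts. Higher too were the eosinophil (1131 and 923 CPM), non-classical monocyte (724 and 474), plasmacytoid dendritic cell (228 and 199) and osteoclast lists (68.6 and 55.8). The B lineage list (301 and 525 CPM) and the mast cell and basophil list (169 and 325) were lower. The 8-gene fibroblast list was higher in the gated cells (2867 CPM) than elsewhere (696 CPM). Between 374 and 7199 CPM of it lay in sick mice, and between 23.4 and 648 CPM in healthy mice. No fibroblast list gene was at 0. It was carried by 77 gated cells with 2 or more counts of the list: 2, 55, 4, 8 and 4 cells in sick mice 1, 3, 4, 5 and 6, and 0, 0, 2 and 2 cells in healthy mice 1, 2, 3 and 4. In sick mouse 3 they were 11.8% of the gated cells.

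Those few cells set the genes with the largest excess in the gate. Col3a1 (a fibrillar collagen chain), Prg4 (lubricin, a joint lubricant) and Fstl1 (a secreted glycoprotein of connective tissue cells) led at 26.1-fold, 21.5-fold and 20.8-fold over the other cells. Without the 77 cells Col3a1 fell to 8.33 CPM in the gate, against 840 CPM with them, and its ratio to the other cells was 0.26. Col3a1 is itself on the fibroblast list that chose the 77 cells, so its fall was fixed by that choice. Fstl1, which is not on the list, fell from 237 to 4.16 CPM. Fn1 counts fell less, to 526 in sick and 223 in healthy mice, against 1127 and 228 with all gated cells. After these 3 genes the leading genes were Ms4a4c, Ifi202b, Rnd3, Klf4, S100a4 and Ms4a6b, whose ratios ran from 7.49 to 10.4 without the 77 cells. Doublets were not removed, and their part in the fibroblast counts was not tested.

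The definition's own genes are given per mouse as description. Ccr2, the receptor for Ccl2, stood at 1816, 803, 1141, 667 and 590.0 CPM in sick mice 1, 3, 4, 5 and 6, and at 907, 1518, 1758 and 1182 CPM in healthy mice 1, 2, 3 and 4. F13a1 ran from 1010 to 1530 CPM in sick mice and from 960.5 to 2084 CPM in healthy mice. Ly6c2, one of the genes behind the Ly6C surface protein, ran from 1256 to 2082 CPM in sick mice and from 1102 to 1597 CPM in healthy mice. Ms4a6c, a membrane protein gene, ran from 854 to 1297 CPM in sick mice and from 837 to 933 CPM in healthy mice. Each of these genes overlapped between the groups.

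**Figure D1:**
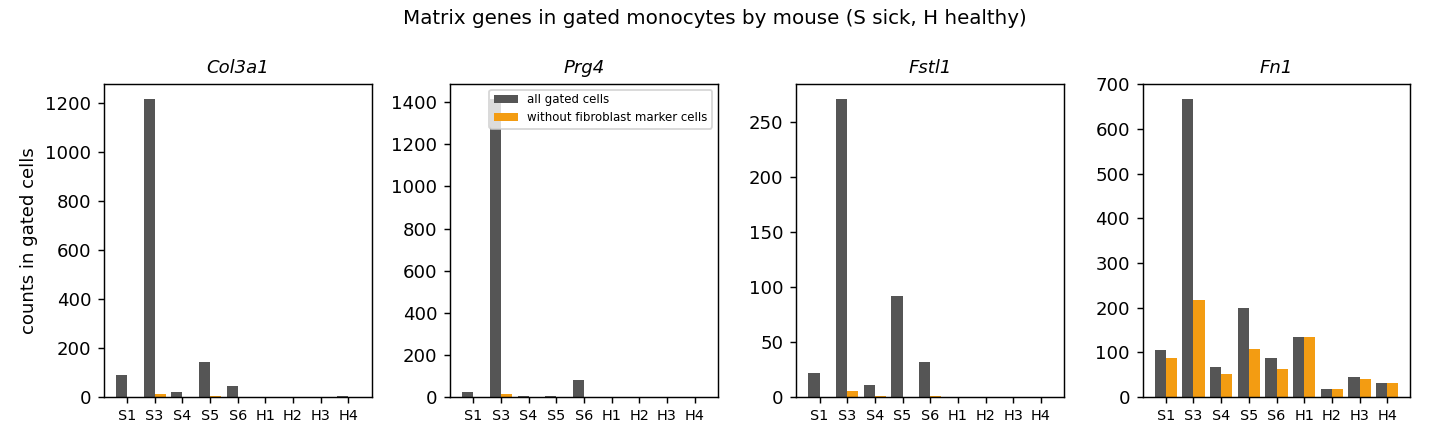
Counts of 3 matrix genes and Fn1 summed over the gated monocytes of each mouse (y axis, counts; x axis, sick mice S1 to S6 left of healthy mice H1 to H4), with all gated cells in grey and without the 77 cells that carry 2 or more fibroblast list counts in orange. Col3a1, Prg4 and Fstl1 were nearly gone without those cells and came mostly from sick mouse 3, while Fn1 remained in every mouse. Col3a1 is on the list that chose those cells, so its loss was fixed by that choice.

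Monocytes made up 10.51, 12.1, 7.80, 7.63 and 5.48% of all cells in sick mice 1, 3, 4, 5 and 6, and 12.6, 4.10, 5.50 and 3.92% in healthy mice 1, 2, 3 and 4. The groups overlapped, since healthy mouse 1 had the highest share of all 9 mice. The means were 8.71% ± 2.62 in sick mice (SD, n = 5) and 6.52% ± 4.09 in healthy mice (SD, n = 4), and a two-sided exact permutation test found no difference beyond the spread (p = 0.349, adjusted over 9 measures p = 0.449; the smallest p that 126 splits allow is 0.0159). The sign of the difference turned when the share was taken among cells with haemoglobin below 20% of counts (a difference of -0.82 percentage points) and when healthy mice 2, 3 and 4 were left out (-3.85). It also turned when the share was taken among the gated myeloid cells alone, which are the monocytes, the C1q-positive cells, the primary granule gene cells and the S100a8/S100a9-high cells. Monocytes were then 15.4, 19.6, 17.6, 13.4 and 11.6% of those cells in sick mice 1, 3, 4, 5 and 6, and 22.5, 19.8, 31.8 and 29.1% in healthy mice 1, 2, 3 and 4. No sick mouse overlapped a healthy one, with means of 15.5% in sick and 25.8% in healthy mice, a difference of -10.3 percentage points. The 12% limit on S100a8 and S100a9 that bounds the monocyte gate also defines the S100a8/S100a9-high cells. The share within these gates is therefore given as description only. This share moves with the number of S100a8/S100a9-high cells. They were 1017, 1573, 420, 1030 and 978 of 2094, 3850, 1397, 2266 and 2593 cells in sick mice 1, 3, 4, 5 and 6. In healthy mice 1, 2, 3 and 4 they were 368, 103, 84 and 73 of 1051, 877, 1400 and 1223 cells.

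The gated cells of the groups also differed in make-up. Mitochondrially encoded transcripts, ribosomal RNA included, took 5.37, 3.83, 7.80, 4.34 and 4.46% of the monocyte counts in sick mice 1, 3, 4, 5 and 6, and 7.42, 8.24, 9.45 and 10.03% in healthy mice 1, 2, 3 and 4. Sick values overlapped the healthy ones only through sick mouse 4 (exact permutation p = 0.0317, adjusted p = 0.171). The haemoglobin genes Hba-a1, Hba-a2, Hbb-bs and Hbb-bt took 5.41, 10.9, 13.2, 16.2 and 18.8% of monocyte counts in sick mice, and 9.69, 23.4, 31.4 and 28.6% in healthy mice (exact p = 0.0952, adjusted p = 0.171). Median genes per monocyte were 523 to 644 in sick mice and 632.5, 380, 386 and 431 in healthy mice (exact p = 0.0794, adjusted p = 0.171), at median counts that averaged 1022 in sick and 999 in healthy mice (exact p = 0.857). None of these measures passed the adjusted test. The mitochondrial share, the haemoglobin share and the genes per cell stood at different group means beside every gene result below, and their part in those results was not tested.

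**Figure D2:**
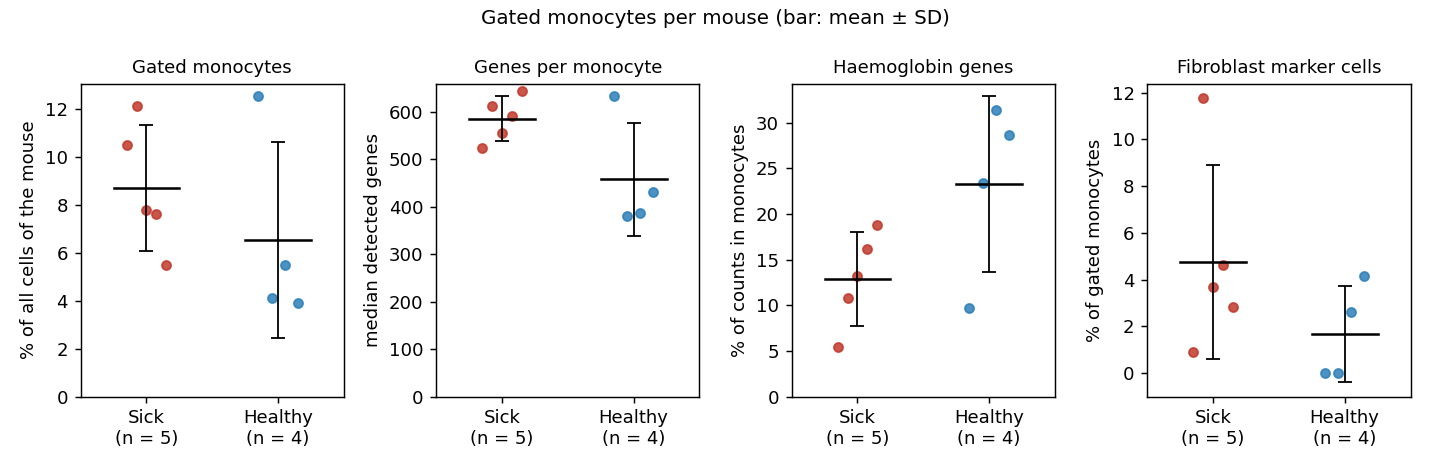
Per-mouse values of the gated monocytes, with sick mice (n = 5) left of healthy mice (n = 4); points are mice and bars are means with SD. The panels give the share of all cells of the mouse, the median number of detected genes per monocyte, the share of counts in haemoglobin genes, and the share of gated cells with 2 or more fibroblast list counts, where sick mouse 3 reached 11.8%.

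Counts of the gated cells were then summed per mouse and compared between sick and healthy mice with edgeR's quasi-likelihood test, with p-values adjusted over all 3637 genes tested and the 14 definition genes left out. A gene was called at an adjusted p of 0.05 or less. In all 29 genes were called (0.797% of those tested). Sick monocytes had 19 genes called higher (0.522% of those tested) and 10 called lower (0.275%), and in 139 genes (3.82%) the sick and healthy mice did not overlap. At an unadjusted p under 0.05, 213 genes were higher and 155 lower. Over all 3637 tested genes, 1862 had a positive and 1775 a negative fold change. With 1 mouse left out, between 5 and 15 genes were called higher and between 1 and 22 lower. In simulated counts of this design the test found 36.6% of genes changed 2-fold and 97.3% of those changed 4-fold. The simulation gave all genes the same spread and changed only genes with enough counts, so it sets no upper limit for a gene not called. Sparc, for example, stood at 3.56 on the log2 scale and was not called by edgeR (adjusted p = 0.0725).

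Interferon-stimulated genes were the largest group of genes that rose. Of 65 on the list 34 were tested, 9 were called higher and none lower, and all 34 had a positive fold change, with a median of 0.95 on the log2 scale against 0.01 over all tested genes. Among all tested genes 0.522% were called higher and 1862 of 3637 were positive. The list was drawn up with earlier results of these data known, so its count is a description. The summed level of the 65 genes was 12080, 8422, 9615, 9138 and 6309 CPM in sick mice 1, 3, 4, 5 and 6, and 4789, 2752, 3423 and 2696 CPM in healthy mice 1, 2, 3 and 4. Every sick mouse was above every healthy mouse.

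Ifi27l2a, a small interferon-induced membrane protein gene (RefSeq GRCm38.p6 chr12:103433873-103443680), changed with the smallest p. It stood at 1311, 631, 1035, 734 and 952 CPM in sick mice 1, 3, 4, 5 and 6, and at 199.8, 59.5, 71.8 and 73.9 CPM in healthy mice 1, 2, 3 and 4. The groups did not overlap, and the fold change was 2.84 ± 0.32 (log2, SE; adjusted p = 2.75e-05). The transcript was found in 604 gated cells, and the 5 cells richest in it held 4.38% of its counts, so the level was not set by a few cells. Ifi44, an interferon-induced antiviral protein gene, had 246, 111, 197, 171 and 82.8 CPM in sick mice, and 14.6 CPM in healthy mouse 1 and none in healthy mice 2, 3 and 4. Only 3 Ifi44 counts came from healthy mice, so the pooled ratio was 16.5 with a 95% counting interval of 5.58 to 80.9 (adjusted p = 0.0035). Both genes were called with any 1 mouse left out.

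The other called genes of the list were antiviral effectors and regulators. Xaf1, a pro-apoptotic partner of XIAP, averaged 159 ± 51.0 CPM in sick mice and 20.4 ± 34.6 CPM in healthy mice, a change of 3.08 ± 0.57 (adjusted p = 0.0104), and without healthy mouse 1 its adjusted p was 0.119. Isg15, a ubiquitin-like modifier that is joined to proteins, averaged 136 ± 23.6 CPM in sick mice and 26.1 ± 43.0 CPM in healthy mice (2.42 ± 0.53, adjusted p = 0.0288). Ifitm3, which blocks virus entry at the membrane, averaged 1335 ± 237 CPM in sick mice and 675 ± 194 CPM in healthy mice (0.94 ± 0.22, adjusted p = 0.0481). Trim30a, a RING-finger protein gene, averaged 376 ± 124 CPM in sick mice and 114 ± 58.4 CPM in healthy mice (1.51 ± 0.33, adjusted p = 0.0288). Oas1a (a sensor of double-stranded RNA) and Rtp4 (an interferon-induced chaperone) had 98 and 75 counts in sick mice and 1 count each in healthy mice; their pooled ratios were 25.1 (interval 4.40 to 1000) and 19.2 (3.34 to 768), with adjusted p of 0.0122 and 0.0139. Oas1a has near-identical neighbours, so its reads could belong in part to another gene of the family.

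Genes that carry the interferon signal changed in part. Irf7, which drives transcription of interferon genes, averaged 160 ± 48.6 CPM in sick mice and 20.3 ± 29.9 CPM in healthy mice (2.00 ± 0.47, adjusted p = 0.0481). Irf9, a DNA-binding factor of the interferon response, did not pass the test (1.57 ± 0.44, adjusted p = 0.124), although its groups did not overlap. Of 12 signalling genes tested, 2 were called and 7 had a positive fold change, with a median of 0.23. That sign count lay near the 1862 of 3637 over all tested genes, of which 0.797% were called.

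These calls rested on a small number of mice. Without healthy mice 2, 3 and 4, which leaves 1 healthy mouse whose spread is assumed to equal that of the sick mice, edgeR called none of the 9 genes (380 of all genes tested had an unadjusted p under 0.05), and over the same 34 members 33 were positive, with a median of 1.20. With 1 mouse left out at a time, Xaf1 kept its call in 8 of 9 fits, Trim30a and Isg15 in 3, Irf7 in 2 and Ifitm3 in 1, with adjusted p values of at most 0.237 where the call was lost. In the same fits Oas1a was tested in 5 and called in 2, and Rtp4 was tested in 3 and called in none.

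**Figure D3:**
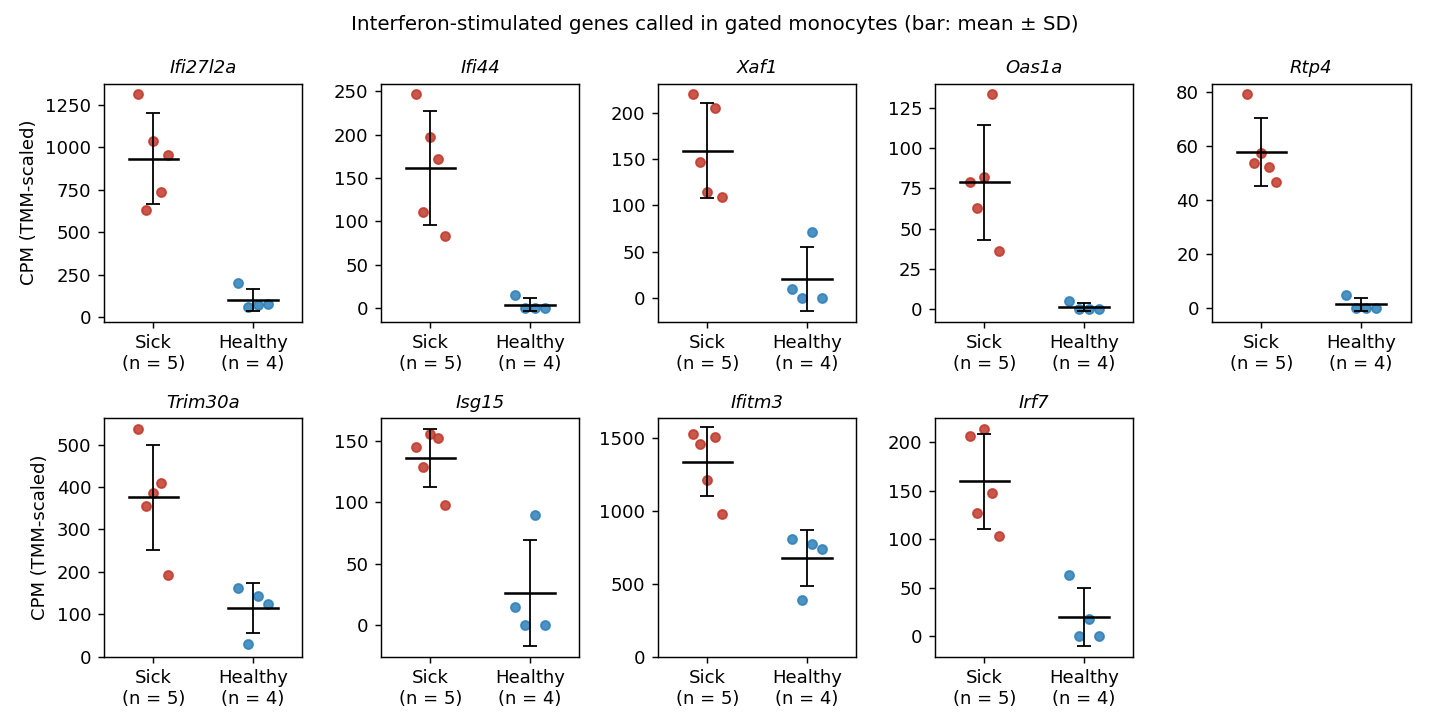
Level of the 9 interferon-stimulated genes called in monocytes (y axis, CPM scaled by TMM), with sick mice (n = 5) left of healthy mice (n = 4); points are mice and bars are means with SD. In each gene every sick mouse was above every healthy mouse, with Ifi27l2a at 631 CPM or more in sick mice and 199.8 CPM or less in healthy mice.

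The promoters of the called genes were read from RefSeq (GRCm38.p6) because the interferon response element, which Irf9 binds with its partners, has a known core. Promoters of 7 of the 9 called genes were found. The core was searched as GAAA, any 2 bases (NN) and GAAA again, on either strand and with overlapping matches counted, in the window from 250 bases before to 50 bases after each gene's start. It was present in 4 of the 7 (57.1%), in 17 of 29 tested list members (58.6%), in 112 of 2425 tested genes (4.62%) and in 1079 of 27025 genes with a promoter (3.99%). The sequences below show how the core is placed in called genes; they run 5′ to 3′ along the gene, and capitals mark the matches. They come from chr4:156200769-156201068 for Isg15, chr5:120907476-120907775 for Oas1a, chr7:141010695-141010994 for Ifitm3 and chr7:104465144-104465443 for Trim30a, all on the minus strand.
Isg15: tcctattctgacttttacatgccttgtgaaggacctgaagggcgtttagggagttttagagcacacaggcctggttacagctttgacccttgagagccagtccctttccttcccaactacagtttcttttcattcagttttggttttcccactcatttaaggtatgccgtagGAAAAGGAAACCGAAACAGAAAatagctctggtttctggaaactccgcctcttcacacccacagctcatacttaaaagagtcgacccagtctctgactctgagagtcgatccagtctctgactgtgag
Oas1a: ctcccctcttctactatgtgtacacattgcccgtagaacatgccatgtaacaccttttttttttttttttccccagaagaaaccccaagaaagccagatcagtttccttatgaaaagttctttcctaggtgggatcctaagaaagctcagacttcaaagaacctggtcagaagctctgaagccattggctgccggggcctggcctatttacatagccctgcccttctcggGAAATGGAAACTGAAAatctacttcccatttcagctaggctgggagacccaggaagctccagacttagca
Ifitm3: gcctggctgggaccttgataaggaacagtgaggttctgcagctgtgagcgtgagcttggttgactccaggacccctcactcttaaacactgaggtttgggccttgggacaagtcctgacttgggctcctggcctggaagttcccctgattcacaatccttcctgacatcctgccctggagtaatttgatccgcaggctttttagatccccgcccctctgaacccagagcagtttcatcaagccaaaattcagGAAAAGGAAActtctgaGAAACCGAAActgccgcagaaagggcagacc
Trim30a: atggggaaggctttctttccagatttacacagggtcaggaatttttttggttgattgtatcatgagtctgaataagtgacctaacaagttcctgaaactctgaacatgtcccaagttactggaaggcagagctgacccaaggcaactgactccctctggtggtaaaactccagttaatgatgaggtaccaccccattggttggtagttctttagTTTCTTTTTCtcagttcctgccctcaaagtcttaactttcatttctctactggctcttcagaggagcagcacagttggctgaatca
The Isg15 window holds 3 overlapping matches, the first at 78 bases before the start, the Oas1a window has 2, with the first at 20 bases before the start, the 2 of Ifitm3 begin 3 and 20 bases after it, and that of Trim30a, which lies on the opposite strand and so reads TTTC, NN and TTTC, begins 36 bases before it. Trim30a has a second window, at chr7:104446076-104446375, which is not printed here and whose 1 match begins 3 bases after that start. The letters were not found in the windows of Irf7, Xaf1 and Ifi44, and nothing about a factor follows from that.

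Among antigen presentation genes the calls lay in MHC class I, and a difference between the classes was not tested. Of 11 MHC class I genes tested, 2 were called higher and none lower, all 11 were positive, and the median was 0.63. Among all tested genes 0.522% were called higher, and 1862 of 3637 were positive. H2-K1, a class I heavy chain, had 462, 565, 476, 519 and 357 CPM in sick mice 1, 3, 4, 5 and 6, and 244, 238, 305 and 123 CPM in healthy mice 1, 2, 3 and 4 (1.03 ± 0.24, adjusted p = 0.0481). B2m, the light chain of all class I molecules, had 998, 1598, 1092, 1605 and 1434 CPM in sick mice, and 731, 715, 897 and 468 CPM in healthy mice (0.93 ± 0.22, adjusted p = 0.0481). Neither gene overlapped between the groups, and both are close to the threshold, with a call in 1 (H2-K1) and 2 (B2m) of 9 fits that left out 1 mouse. Psmb8, an immunoproteasome subunit (adjusted p = 0.158), and H2-D1 (adjusted p = 0.194) were not called. H2-K1 shares reads with near-identical class I genes, so its identity is uncertain. Of the MHC class II genes 6 were tested, none was called and 5 had a negative fold change; H2-Aa, a class II chain, was at -0.52 ± 0.38 (adjusted p = 0.718), and Cd74, the invariant chain, at -0.22 ± 0.25 (adjusted p = 0.845).

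Plac8, a small cysteine-rich protein gene of myeloid cells, had 2005, 1704, 1396, 1939 and 1351 CPM in sick mice 1, 3, 4, 5 and 6, and 751, 447, 1005 and 665 CPM in healthy mice 1, 2, 3 and 4. No sick mouse overlapped a healthy one. The change was 1.20 ± 0.22 (adjusted p = 0.0104), and without healthy mouse 4 its adjusted p was 0.0616. Plac8 was spread over 906 of the 1404 cells. In all other cells of the same mice Plac8 averaged 758 ± 143 CPM in sick and 537 ± 134 CPM in healthy mice, and in the S100a8/S100a9-high cells 615 ± 75.1 CPM in sick and 340 ± 63.9 CPM in healthy mice. Tested as a difference between cell sets within the same mice, the sick effect was 0.96 ± 0.21 larger in monocytes than in all other cells (adjusted p = 0.0317; 0.0787% of 8898 genes were called) and 0.38 ± 0.23 larger than in the S100a8/S100a9-high cells, which was not called (adjusted p = 0.843). Without the 77 fibroblast marker cells the first difference was 1.00, with an adjusted p of 0.0523, and 5 of the 9 fits that left out 1 mouse lost the call. These were the fits without sick mouse 3 (adjusted p = 0.0772), sick mouse 4 (0.0767), sick mouse 5 (0.127), healthy mouse 1 (0.0575) and healthy mouse 2 (0.0837). With DESeq2 the difference was 0.82 (adjusted p = 0.15). Fitted on their own, the Plac8 change was 1.20 in monocytes and 0.50 in all other cells. That gap is smaller than the 0.96 of the joint fit, and the part of library scaling in it was not tested.

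**Figure D4:**
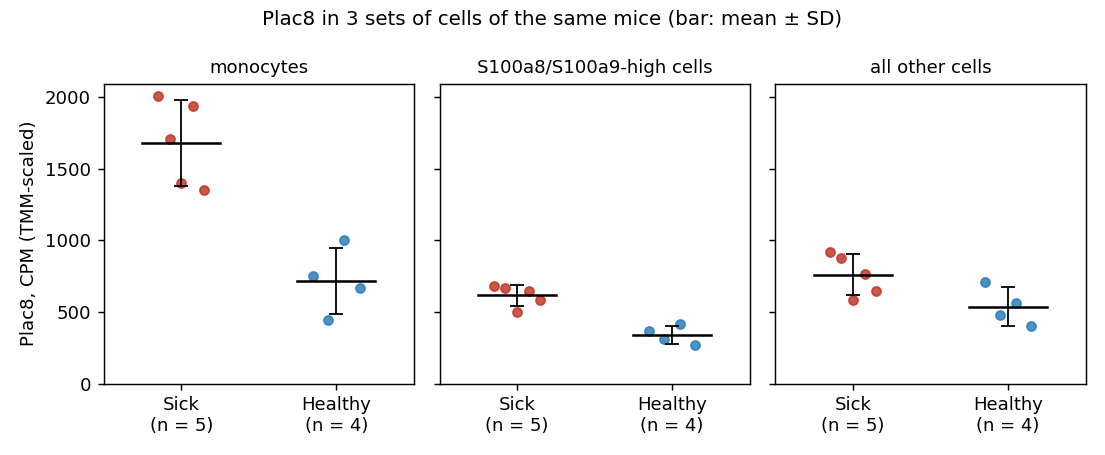
Plac8 level (y axis, CPM scaled by TMM) in the gated monocytes, in S100a8/S100a9-high cells and in all other cells of the same mice, sick mice (n = 5) left of healthy mice (n = 4); points are mice and bars are means with SD. Sick monocytes reached 1351 to 2005 CPM, above the 447 to 1005 CPM of healthy monocytes.

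Few other monocyte genes passed the test. Of 29 members of the monocyte list tested, Plac8 was called higher and Lyz1 lower, and 21 had a positive fold change (median 0.21). Over all tested genes 0.797% were called and 1862 of 3637 were positive. Lyz1, one of the lysozyme genes, had 919, 1008, 1371, 943 and 823 CPM in sick mice 1, 3, 4, 5 and 6, and 1813, 2531, 2081 and 1305 CPM in healthy mice 1, 2, 3 and 4 (-0.93 ± 0.21, adjusted p = 0.0355). Sick mouse 4 lay above healthy mouse 4, so the groups overlapped. Lyz1 kept its call in 3 of 9 fits that left out 1 mouse. Klf4 averaged 527 ± 186 CPM in sick mice and 470 ± 91.7 CPM in healthy mice (0.20 ± 0.26, adjusted p = 0.883), and its sign turned without sick mouse 1 (-0.0059).

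Chemokines, cytokines and their receptors gave no call. Among 5 chemokines tested the largest were Ccl2, the Ccr2 ligand that draws monocytes out of the marrow, and Spp1 (osteopontin). Ccl2 had 545, 466, 312, 143 and 409 CPM in sick mice 1, 3, 4, 5 and 6, and 190, 29.8, 251 and 98.5 CPM in healthy mice 1, 2, 3 and 4. The groups overlapped through sick mouse 5, and the change was 1.21 ± 0.37 (unadjusted p = 0.00346, adjusted p = 0.177). Spp1 was at 1.66 ± 0.66 (adjusted p = 0.36). None of the 9 inflammatory cytokine genes tested passed: Il1b, the interleukin 1 beta gene, was at 306 ± 49.1 CPM in sick mice and 206 ± 84.5 CPM in healthy mice (0.44 ± 0.25, adjusted p = 0.642), and its decoy receptor Il1r2 at 0.94 ± 0.44 (adjusted p = 0.473). Neither was any of the 5 chemoattractant receptors (C5ar1, the complement C5a receptor, at 1.06 ± 0.62, adjusted p = 0.647; Cx3cr1, the fractalkine receptor, at -0.37 ± 0.49, adjusted p = 0.887), nor any of the 9 growth factor receptors, 8 pattern recognition genes, 8 NADPH oxidase genes, 21 lysosomal genes, 14 adhesion genes, 12 S100 and annexin genes, 17 transcription factors, 27 cell cycle genes or 9 glycolysis genes.

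**Figure D5:**
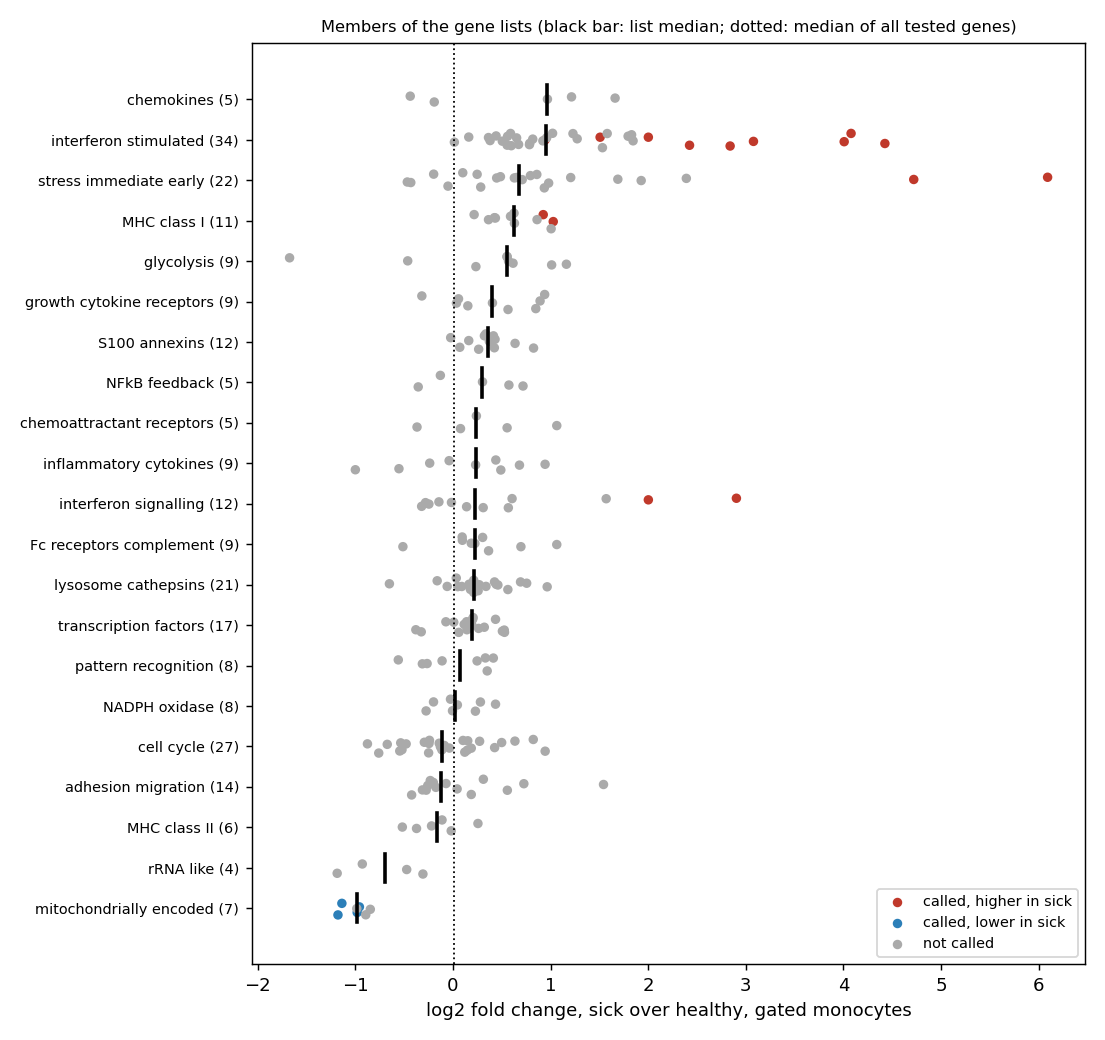
Log2 fold change of sick over healthy monocytes for the members of each pathway or RNA quality list with 4 or more tested genes (rows, number of tested members in brackets), with called genes in colour, the list median as a black bar and the median of all tested genes as a dotted line. Among these lists called genes lie in the interferon, MHC class I, stress and mitochondrially encoded ones; cell type lists are not drawn.

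Subset shares were read from cells thinned to 500 counts, which left 1269 monocytes and dropped 135. Cells with 2 or more counts of the non-classical list, which patrolling monocytes express, were 6.67, 6.49, 7, 6.71 and 8.09% in sick mice 1, 3, 4, 5 and 6, and 8.00, 0, 0 and 2.27% in healthy mice 1, 2, 3 and 4. An exact permutation test gave p = 0.0794 (adjusted p = 0.171), and without healthy mice 2, 3 and 4 the difference was -1.01 percentage points. The same measure in the S100a8/S100a9-high cells was 3 to 6.95% in sick mice and 1.10 to 6.49% in healthy mice. Cells with 2 or more cell cycle counts were 62.7% ± 7.28 in sick mice and 57.2% ± 5.03 in healthy mice (exact p = 0.222), beside 40.6 to 52.9% in sick and 37.9 to 50.6% in healthy S100a8/S100a9-high cells; MHC class II cells were 11.6% ± 3.53 in sick mice and 13.4% ± 5.48 in healthy mice (exact p = 0.556). No subset share passed the adjusted test.

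Stress genes were higher in part. Hspa1a, an inducible heat shock protein 70 gene, had 4.40, 143.5, 222, 596 and 326 CPM in sick mice 1, 3, 4, 5 and 6, and 0, 29.8, 0 and 0 CPM in healthy mice 1, 2, 3 and 4. Only 1 count came from healthy mice; the pooled ratio was 75.7 (interval 13.5 to 3001; adjusted p = 0.0288). Hspa1b, its near-identical copy, gave 284 counts in sick and 3 in healthy mice (ratio 24.2, interval 8.20 to 118; adjusted p = 0.0481), and counts can be split between the pair. Sick mouse 1 had almost none of either. Of 22 stress and early response genes tested these 2 were called and 18 were positive, with a median of 0.68. Over all tested genes 0.797% were called and 1862 of 3637 were positive. With 1 mouse left out each of the 2 genes was tested in 5 fits and called in 1, with adjusted p up to 0.198 for Hspa1a and 0.215 for Hspa1b when a healthy mouse was left out, and Hspa1b was not called with DESeq2.

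Genes of other cell types made up the remaining calls. Col3a1 had 1517 counts in sick mice and 2 in healthy mice (ratio 194, interval 53.6 to 1604; adjusted p = 0.0035), and Fstl1 had 428 counts in sick mice and none in healthy mice, at least 36.5-fold higher by a floor of 3 counts over the group (adjusted p = 0.00429). Both genes had too few counts to be tested without the 77 fibroblast marker cells, where 13 Col3a1 and 7 Fstl1 counts were left in sick mice. Those cells were chosen in part by their Col3a1 counts. Sparc, a collagen-binding protein gene, was not called (adjusted p = 0.0725). Ighg1, an antibody heavy chain gene of plasma cells, had 1545 counts in sick mice and none in healthy mice, at least 132-fold higher by that floor (adjusted p = 0.0481); 5 cells held 78.3% of them, and sick mouse 6 with sick mouse 3 gave 656 and 854. Ighg2c had 275 counts in sick mice and 1 in healthy mice (ratio 70.3, interval 12.5 to 2789; adjusted p = 0.0481), with 79.3% in 5 cells. With 1 mouse left out each was tested in 5 fits and called in 1. Antibody genes share constant region sequence, so their assignment is uncertain. Ear6, an eosinophil ribonuclease gene with close copies, was lower, at 15 counts in sick and 24 in healthy mice (-2.69 ± 0.52, adjusted p = 0.0122), and was called in 2 of 5 such fits.

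Of the 10 genes called lower, 5 were mitochondrial transcripts. Of 7 protein-coding mitochondrial genes tested, 4 were called lower and all 7 were negative (median -0.98). Over all tested genes 0.275% were called lower and 1775 of 3637 were negative. mt-Nd5, a subunit of respiratory complex I, had 356, 369, 452, 372 and 404 CPM in sick mice 1, 3, 4, 5 and 6, and 531, 744, 1220 and 1108 CPM in healthy mice 1, 2, 3 and 4 (-1.18 ± 0.23, adjusted p = 0.0122). mt-Nd1, mt-Nd2 and mt-Co1 were at -0.98 ± 0.22, -1.14 ± 0.27 and -0.96 ± 0.23 (adjusted p = 0.0325, 0.0481 and 0.0481). With 1 mouse left out mt-Nd5 kept its call in 7 of 9 fits, mt-Nd1 in 5, and mt-Nd2 and mt-Co1 in 2 each. EdgeR called none of the 7 without healthy mouse 3, without healthy mouse 4, without a low-count filter and at a marker sum of 5 or more. The same held in cells low in mitochondrial counts with rRNA included. In cells low in haemoglobin and other lineages, where healthy mouse 1 alone remained in its group, their median was -0.33. The ribosomal RNA gene mt-Rnr1 averaged 10767 ± 3340 CPM in sick mice and 24480 ± 6797 CPM in healthy mice (-1.19 ± 0.26, adjusted p = 0.0325) and was called in 2 of 9 such fits. Mir6236, a transcript with ribosomal RNA sequence, was at -1.88 ± 0.36 (adjusted p = 0.0115), the globin pseudogene Hba-ps4 at -1.86 ± 0.34 (adjusted p = 0.0104) and the linker histone gene Hist1h1a at -1.85 ± 0.39 (adjusted p = 0.0269). Hba-a1, the alpha globin gene, averaged 15492 ± 8467 CPM in sick mice and 40591 ± 24280 CPM in healthy mice and was not called (-1.39 ± 0.43, adjusted p = 0.186). Healthy mice 3 and 4 held the highest values of mt-Nd1, mt-Nd2 and Mir6236. Without healthy mice 2, 3 and 4 the median of the mitochondrial list was -0.45 and none of it was called, while Hba-a1 turned to 0.64.

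Differences of the sick effect between monocytes and other cells of the same mice were few. Against the S100a8/S100a9-high cells, of which there were 5646, 6 of 4315 genes were called (0.139%). Hbb-y, Hbb-bh1, Hba-a1, Hba-a2 and Hba-ps4, all globin genes, had a sick effect lower by 1.09 to 1.30 on the log2 scale in monocytes, with the largest in Hbb-y (-1.30 ± 0.24, adjusted p = 0.0225). Cd300lf, an inhibitory receptor gene of myeloid cells, averaged 47.5 ± 23 CPM in sick monocytes and was at 0 in all healthy monocytes, while it averaged 123 ± 48.9 and 110 ± 26.0 CPM in sick and healthy S100a8/S100a9-high cells (adjusted p = 0.0269 for the difference). It had 60 counts in the sick gated cells, and its call was lost in 8 of the 9 fits that left out 1 mouse (adjusted p up to 0.569 without healthy mouse 1; kept without sick mouse 3 at 0.0302) and with DESeq2 (adjusted p = 0.762). No interferon-stimulated gene was called as different from either cell set. Ifi27l2a, for example, averaged 932 ± 266 CPM in sick and 101 ± 66.0 CPM in healthy monocytes, 366 ± 87.9 CPM in sick and 22.2 ± 26.0 CPM in healthy S100a8/S100a9-high cells, and 255 ± 54.7 CPM in sick and 26.5 ± 7.93 CPM in healthy mice over all other cells. Its sick effect was 0.94 ± 0.43 lower in monocytes than in the S100a8/S100a9-high cells (adjusted p = 0.805) and 0.18 ± 0.32 lower than in the rest (adjusted p = 0.975). Against all other cells, 7 of 8898 genes were called (0.0787%), each with a more positive sick effect in monocytes: Col3a1, Sparc, Prg4 and Sdc2, which the 77 fibroblast marker cells carry, Plac8, the plasma cell gene Mzb1, and Gm42418, a transcript with ribosomal RNA sequence. Without those cells edgeR called none, and 526 genes had an unadjusted p under 0.05. With all gated cells and DESeq2 size factors edgeR called 2. Simulated data gave 10% of 2-fold and 56% of 4-fold differences as called in this comparison, and 5.95% and 47.6% against the S100a8/S100a9-high cells.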

How the data were processed

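Single-cell counts came from 9 whole left knee joints (5 sick, 4 healthy) processed with Seq-Well. The deposited table holds raw counts per gene and cell, 24296 genes by 16751 cells; the reads were processed with the Drop-seq Core Computational Protocol 1.0.1, bcl2fastq, Picard and STAR, per the labels' protocols and the submitters' processing notes, which name GRCm38 and mm9 while one protocol names a human build, so no coordinate is taken from the files. Reads of repeated sequencing rounds were merged per the labels; no cell was removed here and no doublet caller was run. Cells carry between 397 and 15932 counts. Mice were taken from the cell names. Gene names matched RefSeq (GRCm38.p6) for 19449 of 24296 genes. Counts of the gated cells were summed per mouse and tested with edgeR 4.0.16 (filterByExpr, TMM, quasi-likelihood, Benjamini-Hochberg at 0.05), and DESeq2 1.42.0 was the alternative; differences between cell sets were fitted with mouse as a block. CPM are scaled by TMM in tests and by total counts in marker descriptions. p-values per mouse are from exact permutation tests, two-sided. Intervals are 95% counting intervals and cover counting error only. Fits were tested on simulated data. Text names called genes with 100 CPM or more in the higher group and no overlap, the 10 largest each way, and up to 4 members per list with the smallest p; Rtp4, Ifitm3, Hspa1a, Hspa1b, Ighg2c, Ear6, mt-Nd1, mt-Nd2 and Lyz1 fall outside the rule and were named after their values were seen. The 6 markers, the 15 leading genes and the 5 largest called differences each way between cell sets were also named. The members, lists and tests were chosen with earlier results of these data known. A called gene is not reported here.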

Additional observations from a re-analysis of the deposited data

Results flagged for a closer look

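Of 112 groups of 4 or 5 mice examined for a value far from the others, 11 held one. The limit gives about 1 in 20 for normally distributed values. CPM of genes with few counts need not be so distributed, so the 11 are not read as an excess. In healthy mice the flagged values were the highest values of Ifi27l2a (199.8 CPM, healthy mouse 1), Xaf1 and Isg15 (71.8 and 89.7 CPM, both healthy mouse 3), H2-D1 and Cdk1 (1429 and 268 CPM, both healthy mouse 2), and the lowest value of Ifitm3 (387 CPM, healthy mouse 2). In sick mice they were the highest values of Col3a1 (2188 CPM) and Sparc (1262 CPM) in sick mouse 3, Ighg2c (761 CPM) in sick mouse 6, Cdk1 (90.3 CPM) in sick mouse 4 and Ccl4 (272 CPM) in sick mouse 5.

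A test of the difference between cell sets marked 13 genes. Against the S100a8/S100a9-high cells the sick effect in monocytes differed by -1.30 for Hbb-y, -1.11 for Hbb-bh1, -1.11 for Hba-a1, -1.20 for Hba-ps4, -1.09 for Hba-a2 and 6.69 for Cd300lf (log2). Against all other cells it differed by 4.73 for Col3a1, 3.47 for Sparc, 0.88 for Gm42418, 9.10 for Prg4, 8.83 for Sdc2, 0.96 for Plac8 and 3.06 for Mzb1. Fold changes of genes at 0 in healthy monocytes (Cd300lf, Prg4 and Sdc2) depend on the prior count.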

How the results depend on the processing

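EdgeR called 19 genes higher and 10 lower in sick monocytes. The genes higher numbered 34 with DESeq2, 128 without a low-count filter, 12 with DESeq2 size factors, 11 in cells low in mitochondrial and rRNA-like counts, 10 with S100a8 and S100a9 below 6%, and 4 after thinning to the smallest library. A marker sum of 5 or more gave 4 and 0 (177 genes in both directions before adjustment, at p under 0.05). The limit to cells low in haemoglobin and other lineages kept 2, 1 and 6 cells in healthy mice 2, 3 and 4. Those mice were left out of that fit, so healthy mouse 1 alone remained in its group and no count of calls is given. Without healthy mice 2, 3 and 4 there were 0 higher and 1 lower (380 before adjustment), and with mitochondrial rRNA counted, chosen after seeing the data, 8 and 2. A marker sum of 2 gave 19 lower. With 1 mouse left out, 5 to 15 were higher and 1 to 22 lower. A replicate block gave 17 higher and 26 lower. Deviations of same-numbered mice correlated at 0.0933, -0.0051 and 0.0283. With few gated cells in the healthy mice, these values cannot show whether shared numbers mark a pairing. The main fit took the mice as unpaired.

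The 6 differences against S100a8/S100a9-high cells became 0 with DESeq2 (434 before adjustment) and without healthy mice 2, 3 and 4 (651 before adjustment), 17 without a filter, and 0 to 9 with 1 mouse left out. The 7 against all other cells became 0 with DESeq2 (402 before adjustment), 2 with its size factors, 23 without a filter, 2 to 16 with 1 mouse left out, and 0 without fibroblast marker cells, where Col3a1 stood at -1.18. Col3a1 counts had helped to choose the cells left out there.

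The sick minus healthy difference in monocyte share became -10.3 within the myeloid gates, -0.82 in cells with haemoglobin below 20% and -3.85 without healthy mice 2, 3 and 4. That last setting also gave median counts of -143.8, median genes of -47.1, haemoglobin of 3.20 and a non-classical share of -1.01. Median counts ran from -52.9 to 82.2 with 1 mouse left out. The cell cycle share was -0.31 unthinned, and the MHC class II share 0.73 at 3 or more counts. Klf4 ran from -0.0059 to 0.31 with 1 mouse left out. Signs also turned for Hba-a1 (0.64) and Tpx2 (0.12) without healthy mice 2, 3 and 4. In cells low in haemoglobin and other lineages, with healthy mouse 1 alone in its group, they turned for Hba-a1 (0.33), Tpx2 (0.55), Cdk1 (0.81) and Cd74 (0.13). Cd74 also turned without a filter (0.063), with the replicate block (0.030), at a marker sum of 5 (0.026) and with mitochondrial rRNA counted (0.041). The cause was not tested.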
